A study of Mus musculus with 48 samples.

Results

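The genes described here encode surface proteins through which a macrophage stimulates or restrains a T cell: Cd274 (PD-L1), Pdcd1lg2 (PD-L2), Cd80, Cd86, Cd40, Cd83, Icosl, Vsir (VISTA), Havcr2 (TIM-3) and Tnfsf9 (4-1BBL). They were chosen by symbol, are 10 of the 51789 gene IDs counted, and each was found once. RNA of mouse macrophages was read by 3′ mRNA sequencing in 48 libraries, 16 groups of 3. Of the 8 macrophage populations, 2 came from the peritoneum, both sorted for F4/80 with magnetic beads: ascites macrophages of mice that had carried ID8 ovarian tumours for 45 days (genotype B6(Cg)-Tyrc-2J/J, strain C57BL/6), and macrophages elicited for 4 days with 3% thioglycollate in wild-type C57BL/6 mice. The other 6 were bone marrow-derived macrophages (BMDM), grown for 6 days with 10 ng/mL M-CSF from wild-type (WT) or p53 knockout (KO) C57BL/6 marrow. They were left unpolarized (M0) or given for 24 h either LPS at 100 ng/mL with IFN-γ at 50 ng/mL (M1) or 10 ng/mL each of IL-4 and IL-13 (M2). Each population was treated for 4 h with AP-3-84 at 10 µM, a compound known here by its code name, or with its DMSO vehicle. The p53 allele is not described. The genotype field of the labels reads wild-type for every BMDM sample, while titles and the series' design separate WT from KO. Nothing says whether the 3 libraries of a group came from separate animals or cultures, so the p-values measure the spread between libraries.

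T cells need a signal beside the antigen receptor, and macrophages supply it through contact proteins. CD80 and CD86 bind CD28, which stimulates, and CTLA-4, which inhibits; ICOSL binds ICOS and 4-1BBL binds 4-1BB, both of them stimulatory receptors. CD40 is the receptor through which a T cell carrying CD40L activates the macrophage in return. PD-L1 and PD-L2 bind the inhibitory receptor PD-1, VISTA restrains T cells, TIM-3 is an inhibitory receptor also carried by myeloid cells, and CD83 stabilises MHC class II and CD86 at the surface. IFN-γ is a well-known inducer of PD-L1, and IL-4 of PD-L2 through STAT6.

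Depth set what could be seen: 15532373 to 19417581 counts in the peritoneal libraries but 3081707 to 4645148 in the BMDM libraries, where 1 count is worth 0.212 to 0.331 CPM (library-scaled counts, as in edgeR's cpm function). Levels are in CPM scaled by the trimmed mean of M-values, the 2 origins were normalized and fitted apart, and no test was made between them. Cdkn1a, a direct p53 target used to check the genotype labels, lay between 555 and 1119 CPM in all WT BMDM libraries and between 34.1 and 292 CPM in all KO ones (the counted 3′ end of Trp53 is no check of an unknown allele). The macrophage list (7 genes, Csf1r and Adgre1 among them) summed to 5894 to 48715 CPM in BMDM and 23747 to 34749 CPM in peritoneal libraries, while Cd3e was at 0 in every BMDM library and at most 0.602 CPM in the peritoneal ones. NK cell genes summed to at most 5.69 CPM, T cell genes to at most 28.6 CPM, B cell genes to at most 71.9 CPM, and eosinophil or mast cell genes to at most 8.55 CPM in any library. The dendritic cell list reached 113 CPM (WT M2 vehicle), the epithelial and ID8 list 271 CPM (ascites with AP-3-84), and the neutrophil list, with S100a8 and S100a9 in it, 4018 CPM (WT M2 vehicle). The M1 check genes (Nos2, Il1b, Il12b and Cxcl9) summed to 352 to 558 CPM in WT M1 and 585 to 1459 CPM in KO M1 vehicle libraries against 9.42 to 93 CPM in WT M0 and 18.3 to 22.5 CPM in KO M0, with Nos2 itself only 1.51 to 4.77 CPM in WT M1. The M2 check genes (Arg1, Retnla, Chil3 and Mrc1) summed to 7030 to 10383 CPM in WT M2 and 5445 to 12079 CPM in KO M2 vehicle libraries against 244 to 318 CPM in WT M0 and 368 to 470.1 CPM in KO M0, and the 5 p53 check genes to 799 to 1768 CPM in WT and 121 to 528 CPM in KO libraries. Over the 2000 most variable genes 3 BMDM libraries were singled out, though others also lay nearer another group than their own. KO M0 AP-3-84 replicate 3 lay nearer the KO M0 vehicle libraries (1.28) than its own group (1.48, root-mean-square log2 distance). KO M2 vehicle replicate 1 lay nearer KO M2 AP-3-84 (0.961) than its own group (1.34). WT M2 vehicle replicate 1 was 1.53 from its group, whose other 2 libraries were 1.11 apart. Of those 2, replicate 2 lay nearest KO M2 AP-3-84 (1.16, own group 1.28) and replicate 3 nearest WT M2 AP-3-84 (1.22, own group 1.36). All 3 KO M1 vehicle libraries lay nearest KO M1 AP-3-84. Also nearer another group were KO M1 AP-3-84 replicate 1, WT M1 AP-3-84 replicate 2, and replicate 3 of WT M0 vehicle and of WT M0 AP-3-84. Of the peritoneal libraries, ascites AP-3-84 replicate 3 lay nearer ascites vehicle (1.40) than its own group (1.43). For the alternative-activation gene Retnla, WT M2 vehicle read 456, 4299 and 2661 CPM and KO M2 vehicle 5858, 455 and 406 CPM, so replicate 1 of each went against its mates, whereas Cdkn1a was as labelled in all 6 (777 to 1115 against 55.5 to 142 CPM). Where leaving out 1 of the 3 libraries singled out changed a call or moved a called value by over 1.5 times, both values are given. KO M0 AP-3-84 replicate 3 and KO M2 vehicle replicate 1 lay near the group they are compared with for AP-3-84. Leaving out such a library favours a larger AP-3-84 difference, so AP-3-84 calls gained that way are no added support.

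Cd274 and Pdcd1lg2 are neighbours and their promoters are shown because these neighbours followed different sets of stimuli in the values below. In GRCm38 with GENCODE M21, Cd274 lies on chromosome 19 at 29367455 to 29388095 and Pdcd1lg2 at 29410919 to 29471161, both on the plus strand, 22823 bases apart with 0 genes wholly between them. RefSeq promoters (GRCm38.p6, 250 bases before to 50 after the start) were at hand for 6 of the 10 genes. Searched on both strands were TTCNNNGAA (the gamma-activated site, in 8.3% of 32851 promoters), TTCNNNNGAA (the STAT6-type spacing, 7.0%), GAAANNGAAA (interferon-stimulated response element core, 3.4%) and the NF-kB consensus (8.5%). Capitals mark the matches in chr19:29367188-29367487 (Cd274, plus strand) and chr19:29410669-29410968 (Pdcd1lg2, plus strand).

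Cd274: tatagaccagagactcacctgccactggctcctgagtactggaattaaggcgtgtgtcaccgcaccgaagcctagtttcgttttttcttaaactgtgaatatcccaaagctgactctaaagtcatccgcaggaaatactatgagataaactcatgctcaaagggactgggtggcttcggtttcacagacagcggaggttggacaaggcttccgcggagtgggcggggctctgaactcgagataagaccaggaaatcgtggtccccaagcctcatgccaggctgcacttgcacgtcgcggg

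Pdcd1lg2: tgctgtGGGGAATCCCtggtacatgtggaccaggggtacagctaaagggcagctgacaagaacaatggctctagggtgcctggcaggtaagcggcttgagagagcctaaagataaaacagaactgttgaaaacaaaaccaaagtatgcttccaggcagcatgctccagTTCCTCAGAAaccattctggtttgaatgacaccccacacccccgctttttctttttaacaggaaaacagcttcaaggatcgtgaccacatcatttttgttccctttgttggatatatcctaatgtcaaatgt

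The Pdcd1lg2 window held the STAT6-type spacing as TTCCTCAGAA, beginning 82 bases before the start. It also held GGGGAATCCC, beginning 244 bases before the start, which matched the NF-kB consensus on both strands. The Cd274 window held none of the 4, nor did those of Cd80, Vsir and Havcr2. The Icosl window held 1 NF-kB match, GGAGCTCCCC, 111 bases before the start. A match describes these letters and is no evidence of binding.

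The remaining genes lie on chromosome 16 (Cd80, plus strand, 38455561 to 38496335; Cd86, minus strand, 36603869 to 36666081), chromosome 2 (Cd40, plus strand, 165055627 to 165072948), chromosome 13 (Cd83, plus strand, 43784775 to 43803132), chromosome 10 (Icosl, plus strand, 78069302 to 78083913; Vsir, plus strand, 60346851 to 60372684), chromosome 11 (Havcr2, plus strand, 46454935 to 46481255) and chromosome 17 (Tnfsf9, plus strand, 57105325 to 57107757). Exons of Cd274 share 511 bases with AC119228.1, an antisense transcript, and exons of Tnfsf9 share 192 bases with Gm11110. Whether the counting used strand is not given in the sources used here, so reads of these partners cannot be told apart from those of Cd274 and Tnfsf9 if it did not. Vsir lies within an intron of Cdh23, and Pdcd1lg2 overlaps A930007I19Rik, with 0 exon bases shared in either case.

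Both polarizing stimuli raised the PD-1 ligand gene Cd274 and the receptor gene Cd40 in WT and in KO macrophages, and IL-4 with IL-13 raised Pdcd1lg2, which was near 0 elsewhere. Of the 9 genes tested (Tnfsf9 did not pass the filter on low counts in either fit), 3 rose and 0 fell in WT M1 against M0 at an adjusted p under 0.05 (15.5% of all genes tested were called), 4 rose and 1 fell in WT M2 against M0 (23.4%), and 1 was higher and 4 lower in WT M1 against M2 (25.5%). In KO macrophages 3 rose and 1 fell in M1 against M0 (44.5%), 3 rose and 3 fell in M2 against M0 (38%), and 2 were higher and 1 lower in M1 against M2 (25.4%). Between genotypes, 3 were higher and 2 lower in KO than WT at M0 (33.2%), and 5 were higher and 0 lower at M1 (11.6%). At M2 edgeR called 0 of 9 between genotypes (3.56%), with 2 at an unadjusted p under 0.05 and 0 called by DESeq2. In KO M1 against M0 the members' share, 4 of 9, was about that of all genes. The counts for M2 against M0 and for M1 against M2 include Pdcd1lg2. That gene passed the filter in the BMDM fit only through the M2 groups, where it is high.

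Ascites macrophages differed from thioglycollate-elicited ones at 7 of the 9 genes, 5 higher and 2 lower, beside 33.7% of all genes. Cd274, Cd86, Cd40, Icosl and Havcr2 were higher in ascites, and Cd83 and Vsir lower. The log2 change from M0 to M1 was different between genotypes for 4 genes (20.7% of all genes called for this difference). Cd274 and Cd40 rose in both and more in KO, while for Icosl (0.98 in KO, -1.04 in WT) and Vsir (-1.98 in KO, 0.86 in WT) the fitted changes had opposite signs. From M0 to M2 it was different for 2 (27.1%): Cd83 (-0.96 in KO, 2.49 in WT) and Vsir (-2.27 in KO, 0.10 in WT).

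The response to AP-3-84 was uneven among the populations. In KO M0 2 genes rose and 1 fell (20.7% of all genes called), in WT M2 0 rose and 2 fell (1.21%), and in thioglycollate macrophages 0 rose and 2 fell (4.32%). EdgeR called 0 of 9 in ascites macrophages (1.79%; 0 at an unadjusted p under 0.05 and 0 by DESeq2), 0 in WT M0 (0.144%; 3 unadjusted, 0 by DESeq2), 0 in WT M1 (0.017%; 1 unadjusted, 1 by DESeq2), 0 in KO M1 (0% of all genes; 0 unadjusted, 0 by DESeq2) and 0 in KO M2 (0.0509%; 3 unadjusted, 0 by DESeq2). The response itself differed between KO and WT for 3 genes at M0 (17% of all genes) and 3 at M2 (1.77%). Without KO M0 AP-3-84 replicate 3 the KO M0 count was 4 and that of the M0 response difference 5, and without KO M2 vehicle replicate 1 the KO M2 count was 2. The shares of all genes given here are from the fits with no library left out, so they are no background for these counts. Both libraries left out resembled the group they are compared with, so leaving them out favours more calls. The response difference was called for 0 at M1 (0.00849%; 1 unadjusted, 0 by DESeq2) and for 0 between ascites and thioglycollate macrophages (0.118%; 2 unadjusted, 0 by DESeq2).

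**Figure D1:**
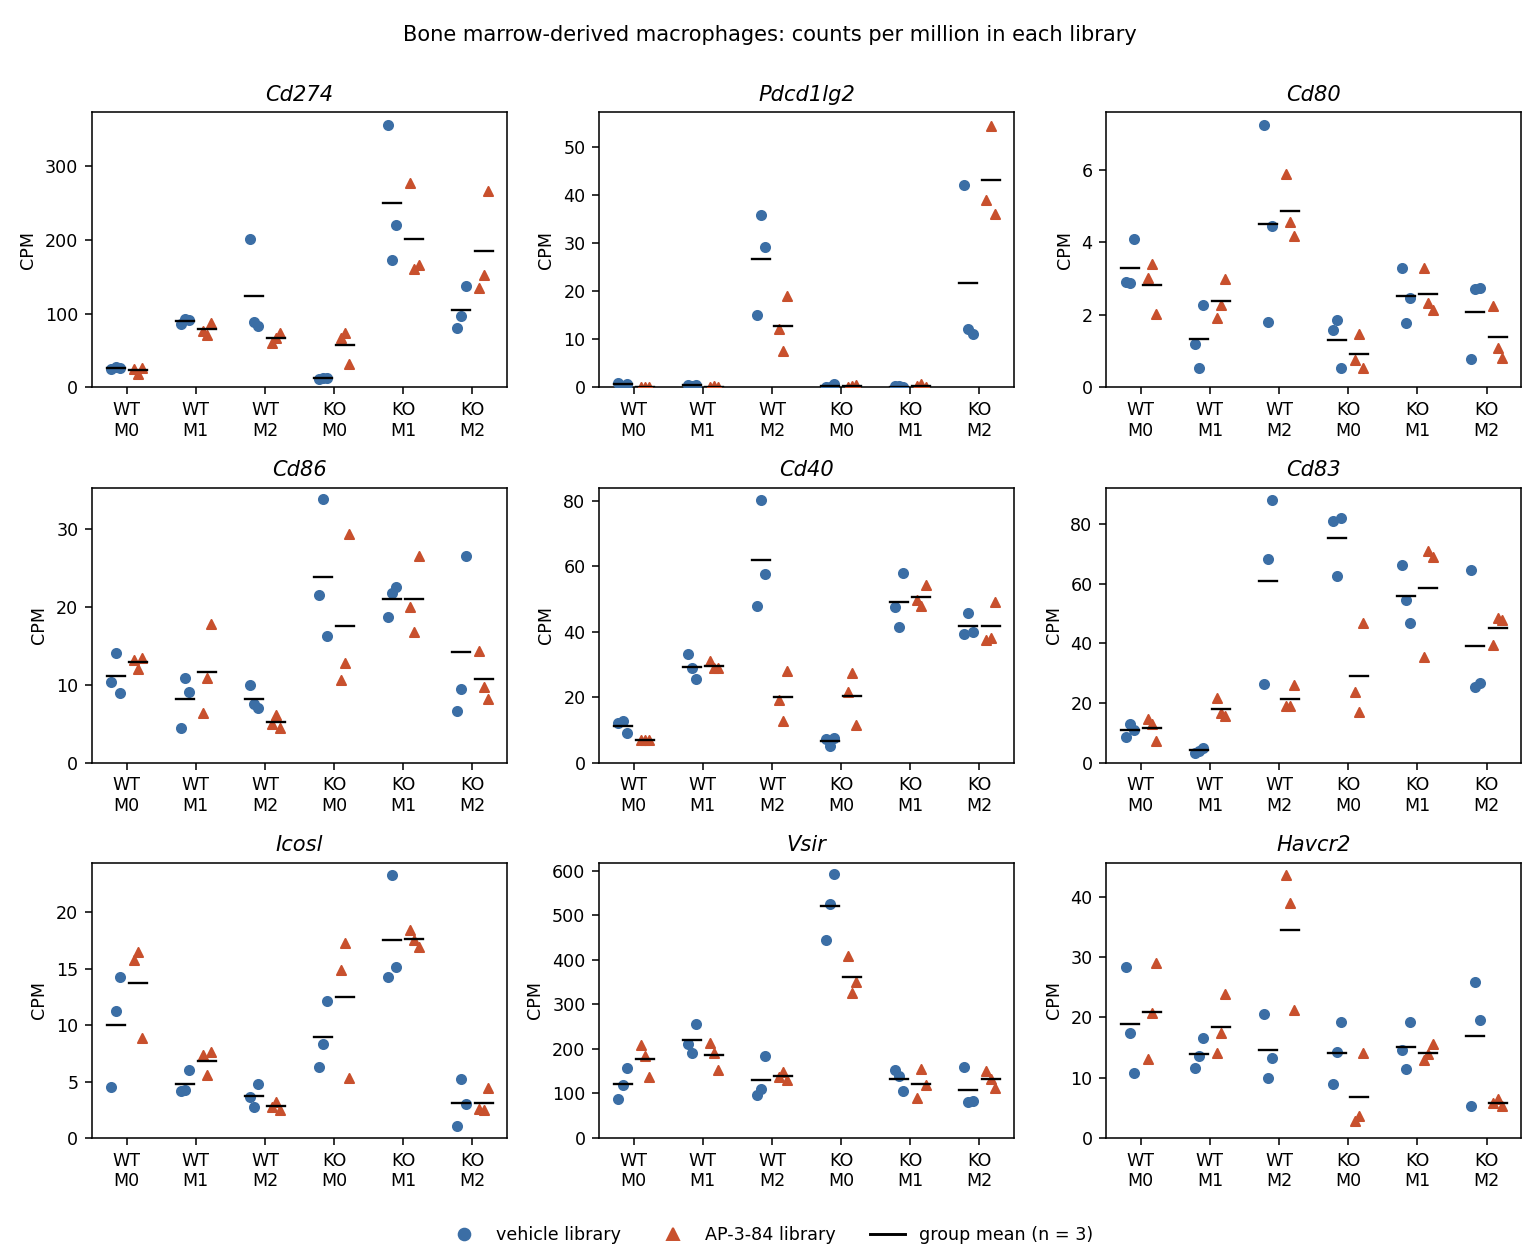
Levels in CPM (linear axes from 0) of 9 genes in every bone marrow-derived library, by genotype (WT, KO) and polarization (M0, M1, M2); circles are vehicle libraries, triangles AP-3-84 libraries, bars group means of 3. Pdcd1lg2 lies near 0 outside the M2 groups, Cd274 spans 11.8 to 355 CPM, and Vsir is highest in KO M0.

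Cd274, the PD-L1 gene, was at 25.1, 28.0 and 26.1 CPM in WT M0 vehicle libraries, at 86.1, 93.0 and 90.6 CPM in WT M1 and at 201, 88.7 and 83.0 CPM in WT M2. All polarized libraries were above all M0 ones, and WT M2 replicate 1 stood far above its mates. The rise was 1.77 ± 0.33 (log2 fold change ± SE here and below; edgeR quasi-likelihood test, adjusted p = 0.000513) in M1 and 2.23 ± 0.34 (adjusted p = 1.43e-05) in M2, the latter 1.69 (adjusted p = 0.000251) without WT M2 vehicle replicate 1. KO M0 vehicle libraries read 11.8, 12.6 and 13 CPM, KO M1 355, 173 and 220 CPM, and KO M2 80.7, 96.2 and 137 CPM. Starting below every WT M0 library, KO cells thus ended above every WT library in M1. The KO rise was 4.32 ± 0.37 (adjusted p = 1.77e-09) in M1 and 3.07 ± 0.36 (adjusted p = 2.21e-07) in M2, and the M1 rise was 2.55 ± 0.48 larger than in WT (adjusted p = 0.000366). The M2 rise differed by 0.83 ± 0.48 (adjusted p = 0.2), and by 1.37 (adjusted p = 0.0235) without WT M2 vehicle replicate 1. KO M1 exceeded KO M2 by 1.25 ± 0.32 (adjusted p = 0.00372), a call that ended without KO M1 vehicle replicate 1 (adjusted p = 0.0518).

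Between genotypes Cd274 was lower in KO at M0 (-1.08 ± 0.36, adjusted p = 0.0227) and higher at M1 (1.47 ± 0.32, adjusted p = 0.00342). The M0 call ended without WT M0 vehicle replicate 2 or any 1 of the 3 KO M0 vehicle libraries (adjusted p = 0.0558 to 0.0648). No label says when or in what order the WT and KO cultures were prepared, so genotype and preparation cannot be told apart in any KO against WT value. The summed macrophage list also moved: 43565 to 46541 CPM in WT M1 but 16073 to 25150 CPM in KO M1 vehicle libraries, and 24908 to 30922 CPM in WT M2 but 5894 to 18413 CPM in KO M2. The neutrophil list summed to 1552 to 2574 CPM in KO M1 against 747 to 962 CPM in WT M1 and 582 to 707 CPM in KO M0 vehicle libraries. In M2 vehicle libraries it summed to 418 to 3158 CPM in KO and 473 to 4018 CPM in WT. The part of either list in the KO M1 and KO M2 differences was not tested. In bulk RNA fewer cells of a type and less RNA per cell cannot be told apart.

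AP-3-84 raised Cd274 in KO M0, where treated libraries read 66.9, 74.2 and 32.0 CPM against 11.8 to 13 CPM in vehicle. Every treated library was above every vehicle one, and the lowest, replicate 3, is the library that resembled the vehicle group. The rise was 2.21 ± 0.36 (adjusted p = 8.1e-05), or 2.50 (adjusted p = 5.06e-06) without that library. In WT M0 the treated libraries read 25.0, 17.8 and 26.5 CPM, overlapping vehicle, and the responses of the genotypes differed by 2.40 ± 0.50 (adjusted p = 0.00174; 2.69 without KO M0 AP-3-84 replicate 3). In KO M2 treated libraries lay at 135, 152 and 265 CPM and in WT M2 at 60.5, 67.0 and 74.2 CPM, changes of 0.81 ± 0.31 (adjusted p = 0.275) and -0.89 ± 0.32 (adjusted p = 0.206) that did not pass the test. The difference between these 2 responses was 1.70 ± 0.45 (adjusted p = 0.0447). That call ended without any 1 of 9 of the 12 libraries (all but WT M2 vehicle replicates 2 and 3 and KO M2 AP-3-84 replicate 1; adjusted p = 0.0513 to 0.159), under scaling by total counts (adjusted p = 0.0681) and with only the compared libraries fitted (adjusted p = 0.183). It was 1.19 (adjusted p = 0.131) without WT M2 vehicle replicate 1 and 1.54 (adjusted p = 0.0513) without KO M2 vehicle replicate 1. Treated WT M1 libraries (70.8 to 87.6 CPM) and KO M1 libraries (161 to 276 CPM) differed from vehicle by -0.20 ± 0.32 and -0.31 ± 0.31.

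Pdcd1lg2, the PD-L2 gene, read 15.0, 35.9 and 29.1 CPM in WT M2 vehicle and 41.9, 12.2 and 11.2 CPM in KO M2 vehicle, against at most 0.897 CPM in any other BMDM vehicle library. Its presence followed the IL-4 and IL-13 groups in both genotypes. Replicate 1, singled out above in both groups, was lowest of the WT M2 libraries and highest of the KO M2 ones. WT M2 libraries held 265 counts in all and WT M0 libraries 8, a ratio of 41.3 (20.7 to 96.7, exact 95% interval for counting error only), with adjusted p = 4.63e-07 in edgeR. KO M2 held 257 counts against 3 in KO M0, a ratio of 75.3 (25.5 to 368, adjusted p = 3.72e-07), and all 3 KO M0 counts came from replicate 3. Without KO M2 vehicle replicate 1 this call held (log2 fold change 5.24, from 6.12; adjusted p = 1.18e-06). Against M1, with 5 counts in WT and 2 in KO, the ratios were 58.4 (24.7 to 181, adjusted p = 2.16e-07) and 127 (34.7 to 1052, adjusted p = 2.36e-07), the latter with a log2 fold change of -6.76 that became -5.87 without KO M2 vehicle replicate 1. Both M2 groups thus stood far above both other states, while their own difference, -0.30 ± 0.45, did not pass the test (adjusted p = 0.769). Outside M2 no BMDM library held over 4 counts, so Pdcd1lg2 passed the filter on low counts only through the M2 groups. Its calls of M2 against M0 and M1 are thus not independent of that filter.

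With AP-3-84, Pdcd1lg2 was at 12.0, 7.51 and 18.9 CPM in WT M2 and at 38.9, 54.3 and 36 CPM in KO M2. Treated and vehicle libraries overlapped in both, with changes of -1.05 ± 0.46 (adjusted p = 0.342) and 0.99 ± 0.44 (adjusted p = 0.353). Without KO M2 vehicle replicate 1, which resembled the treated group, the KO change was 1.88 (adjusted p = 0.0182), a choice that favours a call. The difference between the responses, 2.05 ± 0.64 (adjusted p = 0.0971), became 2.93 (adjusted p = 0.00339) without that library and 2.36 (adjusted p = 0.0488) without WT M2 vehicle replicate 1. WT M0 had 8 counts in vehicle and 0 in AP-3-84. This was 2.5-fold lower with the treated group set to a floor of 3 counts in all, leaving out the counting error of the 8. The edgeR test did not call it (adjusted p = 0.442). Peritoneal libraries stayed at or below 1.45 CPM.

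Of the CD28 and CTLA-4 ligand genes, Cd80 was low and scattered in BMDM (median 2.27 CPM, against 11.5 CPM for Cd86). Cd80 ranged from 0.53 to 7.23 CPM over all 36 libraries, at counts where the spread is wide, and read 7.23, 1.81 and 4.43 CPM in WT M2 vehicle, 5.87, 4.56 and 4.17 CPM in WT M2 with AP-3-84, and 1.19, 0.53 and 2.27 CPM in WT M1 vehicle. WT M1 was below WT M2 by 1.73 ± 0.57 on the log2 scale (adjusted p = 0.0201), with overlapping libraries. The call ended without WT M1 vehicle replicate 1 or 2 or WT M2 vehicle replicate 1 (adjusted p = 0.0659 to 0.165) or without the filter on low counts (adjusted p = 0.0656), and the difference grew to 2.38 (log2 fold change -2.38) without WT M1 vehicle replicate 3. No other comparison called Cd80. Peritoneal libraries read 1.42 to 3.63 CPM.

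Cd86 was at 28.8, 29.7 and 22.6 CPM in ascites vehicle and at 5.75, 4.43 and 4.23 CPM in thioglycollate vehicle. The groups did not overlap, and the difference of 2.50 ± 0.18 (adjusted p = 4.85e-09) was 5.64-fold. In BMDM vehicle libraries Cd86 read 10.3, 14.1 and 8.95 CPM in WT M0, 4.47, 10.9 and 9.06 CPM in WT M1, and 21.5, 33.9 and 16.2 CPM and 18.7, 21.8 and 22.5 CPM in KO M0 and KO M1. KO libraries were above WT libraries in both states, by 1.09 ± 0.40 (adjusted p = 0.0357) and 1.36 ± 0.42 (adjusted p = 0.0311). These calls ended without WT M0 vehicle replicate 1 or 3 or KO M0 vehicle replicate 2 (adjusted p = 0.106 to 0.202), and without replicate 1 or 3 of WT M1 or of KO M1 vehicle (adjusted p = 0.0587 to 0.155). KO M2 vehicle spread from 6.63 to 26.5 CPM, and without its replicate 3 KO M2 was called lower than KO M0 (-1.55, adjusted p = 0.00446) and than KO M1 (KO M1 against M2 1.38, adjusted p = 0.0121). S100a8, of the neutrophil list, read 1596 CPM in KO M2 vehicle replicate 3 but 170 and 307 CPM in replicates 1 and 2. The part of neutrophils in its Cd86 level was not tested. No AP-3-84 comparison called Cd86.

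Icosl, the ICOS ligand gene, read 8.27, 8.43 and 9.11 CPM in ascites vehicle against 0.766, 1.76 and 0.651 CPM in thioglycollate vehicle, with no overlap. This difference, 3.02 ± 0.32 (8.11-fold, adjusted p = 6.07e-07), went with higher Cd86 in the same libraries. In BMDM vehicle libraries Icosl was at 4.49, 11.2 and 14.3 CPM in WT M0, 4.17, 4.24 and 6.04 CPM in WT M1, and 3.62, 2.71 and 4.75 CPM in WT M2. KO libraries read 6.29, 8.31 and 12.2 CPM in M0, 14.3, 23.3 and 15.2 CPM in M1, and 1.06, 5.18 and 2.98 CPM in M2. Thus M2 was low in both genotypes, and M1 was high in KO and low in WT. The M2 fall was 1.43 ± 0.44 in WT (log2 fold change -1.43, adjusted p = 0.0174) and 1.5 ± 0.45 in KO (-1.5, adjusted p = 0.00804). KO M1 was above KO M0 by 0.98 ± 0.39 (adjusted p = 0.0418), above KO M2 by 2.48 ± 0.43 (adjusted p = 4.65e-05) and above WT M1 by 1.85 ± 0.41 (adjusted p = 0.00371), and the M1 response differed between genotypes by 2.01 ± 0.58 (adjusted p = 0.0119).

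Several of these Icosl calls rested on single libraries. The WT M2 fall ended without WT M0 vehicle replicate 2 or 3 or WT M2 vehicle replicate 2 (adjusted p = 0.0561 to 0.112) or with only the compared libraries fitted (adjusted p = 0.0587), and the KO M2 fall without KO M0 vehicle replicate 3 (adjusted p = 0.0624) or KO M2 vehicle replicate 1 (-1.11, adjusted p = 0.0555). The KO M1 rise ended without replicate 1 or 2 of KO M0 or 2 or 3 of KO M1 vehicle (adjusted p = 0.0505 to 0.179) or under scaling by total counts (adjusted p = 0.0567). WT M1 was called below WT M0 (-1.39, adjusted p = 0.0252) once WT M0 vehicle replicate 1, the lowest, was left out. Without KO M2 vehicle replicate 2, the highest of its group, the KO M2 fall was -2.11 and the KO M1 excess over M2 3.09. AP-3-84 changed Icosl in no population at the threshold.

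**Figure D2:**
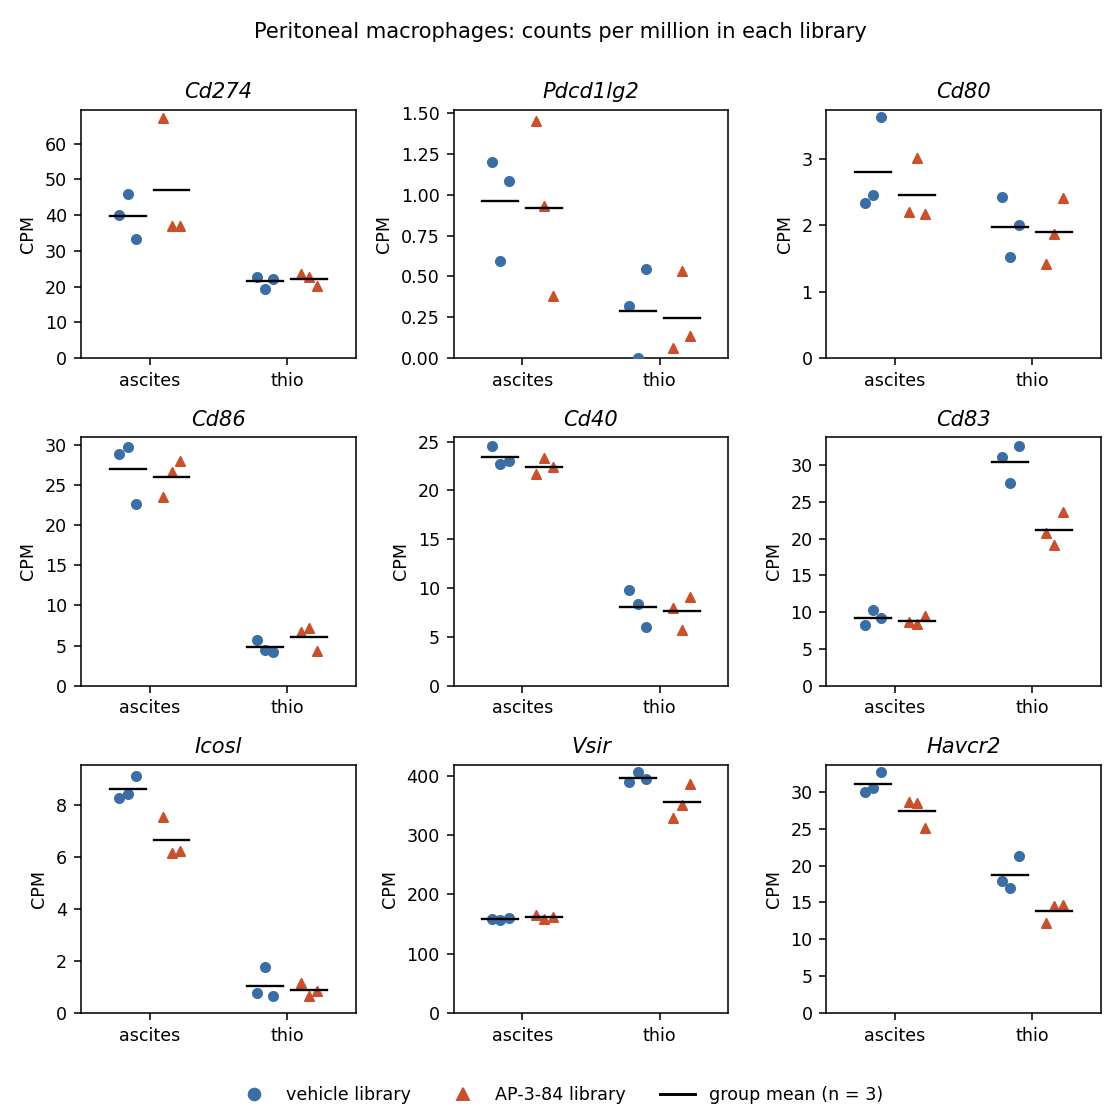
Levels in CPM (linear axes from 0) of 9 genes in every peritoneal library, ascites and thioglycollate (thio); circles are vehicle libraries, triangles AP-3-84 libraries, bars group means of 3. Ascites lies above thioglycollate for Cd274, Cd86, Cd40, Icosl and Havcr2 and below it for Cd83 and Vsir, with no overlap of vehicle libraries.

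Cd40, the receptor for CD40L, was at 24.5, 22.7 and 23.0 CPM in ascites vehicle and 9.77, 8.38 and 5.97 CPM in thioglycollate vehicle, a difference of 1.55 ± 0.17 (adjusted p = 1.15e-06) with no overlap. Cd274 and Havcr2 were also higher in ascites: Cd274 read 39.9, 46.0 and 33.2 against 22.8, 19.4 and 22.1 CPM (0.89 ± 0.22, adjusted p = 0.00698). The list of 7 epithelial and ID8 tumour cell genes summed to 210 to 247 CPM in ascites vehicle and 2.55 to 4.66 CPM in thioglycollate vehicle libraries, with Krt18 at 67.2 to 77.1 CPM against at most 1.15 CPM. The B cell list went the other way (13.6 to 18.5 against 68.8 to 71.9 CPM), and the dendritic cell list summed to 36.3 to 44.5 against 31.8 to 33.3 CPM. The part of these cells in the ascites differences was not tested. The strains' genotype labels also differ between the groups, which cannot be told apart from the tumour.

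In BMDM vehicle libraries Cd40 rose with both stimuli: 12.1, 12.7 and 8.95 CPM in WT M0, 33.1, 28.9 and 25.7 CPM in WT M1, and 47.9, 80.2 and 57.6 CPM in WT M2. No library of one state overlapped another. The rises were 1.37 ± 0.25 (adjusted p = 0.000296) and 2.45 ± 0.25 (adjusted p = 9.07e-09), with M1 below M2 (-1.08 ± 0.23, adjusted p = 0.000622). KO libraries read 7.34, 5.23 and 7.57 CPM in M0, 47.5, 41.5 and 57.8 CPM in M1, and 39.3, 45.7 and 39.9 CPM in M2, so that both polarized states lay near each other. KO rises were 2.85 ± 0.27 (adjusted p = 1.98e-09) and 2.62 ± 0.27 (adjusted p = 7.48e-09), the M1 rise 1.48 ± 0.37 larger than in WT (adjusted p = 0.00387). KO was lower than WT at M0 (-0.74 ± 0.28, adjusted p = 0.0432) and higher at M1 (0.75 ± 0.23, adjusted p = 0.033). Those genotype calls ended without WT M0 vehicle replicate 1 or 2 or any KO M0 vehicle library (adjusted p = 0.0618 to 0.159), and without any WT M1 vehicle library or KO M1 vehicle replicate 1 or 3 (adjusted p = 0.0553 to 0.166). The M0 call also ended under scaling by total counts (adjusted p = 0.0576) and with only the compared libraries fitted (adjusted p = 0.0741).

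AP-3-84 moved Cd40 in opposite directions in WT M2 and KO M0. Treated WT M2 libraries read 19.1, 12.9 and 28.1 CPM, all below the 47.9 to 80.2 CPM of vehicle, a fall of 1.63 ± 0.24 (log2 fold change -1.63, adjusted p = 0.000318). Treated KO M0 libraries read 21.7, 27.4 and 11.6 CPM, all above vehicle, a rise of 1.58 ± 0.27 (adjusted p = 0.000115; 1.86 without replicate 3 of the treated group). Treated KO M2 libraries read 37.6, 38.0 and 49.1 CPM, on both sides of the vehicle ones, and treated WT M0 libraries (7.00, 6.82 and 6.82 CPM) lay below vehicle without passing the test (-0.71 ± 0.28, adjusted p = 0.424). The responses of KO and WT differed by 2.29 ± 0.39 at M0 (adjusted p = 0.00018) and by 1.62 ± 0.33 at M2 (adjusted p = 0.0085), the latter not called when only the compared libraries were fitted (adjusted p = 0.0749). In WT M2 the dendritic cell list summed to 27.5 to 113 CPM in vehicle and 11.4 to 47.5 CPM with AP-3-84, and the neutrophil list to 473 to 4018 and 243 to 672 CPM. The part of these cells in the result was not tested. In KO M0 the dendritic cell list summed to 30.0 to 33.0 CPM in vehicle and 9.62 to 24.4 CPM with AP-3-84. The macrophage list there read 32252 to 38950 and 17926 to 38791 CPM, and the M1 check genes 18.3 to 22.5 and 29.6 to 218 CPM.

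Tnfsf9, the ligand of 4-1BB, was at the edge of detection, with 0 to 18 counts per library. All 3 WT M2 and all 3 KO M2 vehicle libraries held 0 counts, whereas the KO M1 vehicle group held 13 (0.549, 1.27 and 1.34 CPM) and the WT M0 and WT M1 groups 6 each. With the M2 group set to the same floor, KO M1 was 4.39-fold higher than KO M2 and WT M1 1.81-fold higher than WT M2. These ratios leave out the counting error of the M1 counts and were not tested. WT M1 vehicle replicate 2 also held 0 counts, so the WT M1 and WT M2 libraries overlapped. Peritoneal libraries read 0.0542 to 1.13 CPM, the highest in an AP-3-84-treated ascites library.

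Cd83, which encodes a stabiliser of surface MHC class II and CD86, ordered the polarization states differently in the 2 genotypes. WT vehicle libraries read 8.52, 12.9 and 11.0 CPM in M0, 3.28, 3.97 and 5.04 CPM in M1, and 26.4, 68.5 and 88.0 CPM in M2. KO vehicle libraries read 81.2, 62.8 and 82.2 CPM in M0, 66.2, 54.4 and 46.9 CPM in M1, and 64.7, 25.5 and 26.8 CPM in M2. In WT every M2 library was above the other states, while the KO states overlapped and KO M1 was not called against KO M0 (-0.44 ± 0.36, adjusted p = 0.337). In WT, M2 was above M0 by 2.49 ± 0.40 (adjusted p = 3.71e-05) and M1 below M2 by 3.87 ± 0.46 (log2 fold change -3.87, adjusted p = 1.85e-07), while M1 against M0 just missed the threshold (-1.38 ± 0.49, adjusted p = 0.0519). KO exceeded WT by 2.80 ± 0.40 at M0 (6.98-fold, adjusted p = 7.93e-06) and 3.75 ± 0.46 at M1 (13.4-fold, adjusted p = 6.8e-06). KO M2 was below KO M0 by 0.96 ± 0.37 (log2 fold change -0.96, adjusted p = 0.0391), a call lost without replicate 1 or 3 of KO M0 or 2 or 3 of KO M2 vehicle (adjusted p = 0.0835 to 0.176) or with only the compared libraries fitted (adjusted p = 0.0653), and larger without KO M2 replicate 1 (-1.53, adjusted p = 0.00249). The M2 response differed between genotypes by -3.45 ± 0.54 (adjusted p = 4.37e-05; -4.02 without KO M2 vehicle replicate 1). Without KO M2 vehicle replicate 1, KO M2 was called below WT M2 (-1.22, adjusted p = 0.0461) and below KO M1 (KO M1 against M2 1.10, adjusted p = 0.0424).

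With AP-3-84, Cd83 fell in 3 populations. It was at 19.1, 19.0 and 26.1 CPM in WT M2 (-1.5 ± 0.38, adjusted p = 0.0438), at 23.7, 17.0 and 46.9 CPM in KO M0 (-1.37 ± 0.37, adjusted p = 0.00931), and at 20.8, 19.1 and 23.6 CPM in thioglycollate macrophages, whose vehicle libraries read 31.0, 27.6 and 32.5 CPM (-0.52 ± 0.12, adjusted p = 0.017). In each case every treated library was below every vehicle one, in WT M2 narrowly (26.1 against 26.4 CPM). The WT M2 call ended without vehicle replicate 2 or 3 or any treated library (adjusted p = 0.0745 to 0.225), under scaling by total counts (adjusted p = 0.0671) or with only the compared libraries fitted (adjusted p = 0.22), and was -1.87 (adjusted p = 0.00681) without vehicle replicate 1. The KO M0 call ended without treated replicate 1 or 2 (adjusted p = 0.0592 to 0.0911) or with only the compared libraries fitted (adjusted p = 0.0515), and was -1.88 (adjusted p = 0.000782) without treated replicate 3. The thioglycollate call ended without replicate 1 or 3 of vehicle or 1 or 2 of AP-3-84 (adjusted p = 0.0605 to 0.0944) and in a single fit of all 48 libraries (adjusted p = 1).

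In WT M1 Cd83 went the other way, to 21.8, 16.6 and 15.5 CPM from 3.28, 3.97 and 5.04 CPM. All treated libraries were above all vehicle ones, and the change of 2.11 ± 0.48 did not pass in edgeR (adjusted p = 0.12) but did in DESeq2 (adjusted p = 0.00287) and in edgeR on the compared libraries alone (adjusted p = 0.00236). KO M1 libraries overlapped (35.3, 70.9 and 69.1 CPM treated), and the difference between the M1 responses, -2.04 ± 0.60, was not called (adjusted p = 0.555). At M0 the difference between responses was -1.47 ± 0.57 (adjusted p = 0.0707), or -1.98 (adjusted p = 0.00973) without KO M0 AP-3-84 replicate 3 and -1.71 (adjusted p = 0.0411) without WT M0 AP-3-84 replicate 3. At M2 it was 1.72 ± 0.53 (adjusted p = 0.0952), or 2.30 (adjusted p = 0.00642) without KO M2 vehicle replicate 1 and 2.11 (adjusted p = 0.0185) without WT M2 vehicle replicate 1. In ascites macrophages Cd83 stayed at 8.35 to 9.50 CPM against 8.27 to 10.3 CPM in vehicle, below every thioglycollate library (ascites against thioglycollate vehicle -1.71 ± 0.12, adjusted p = 5.92e-09).

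**Figure D3:**
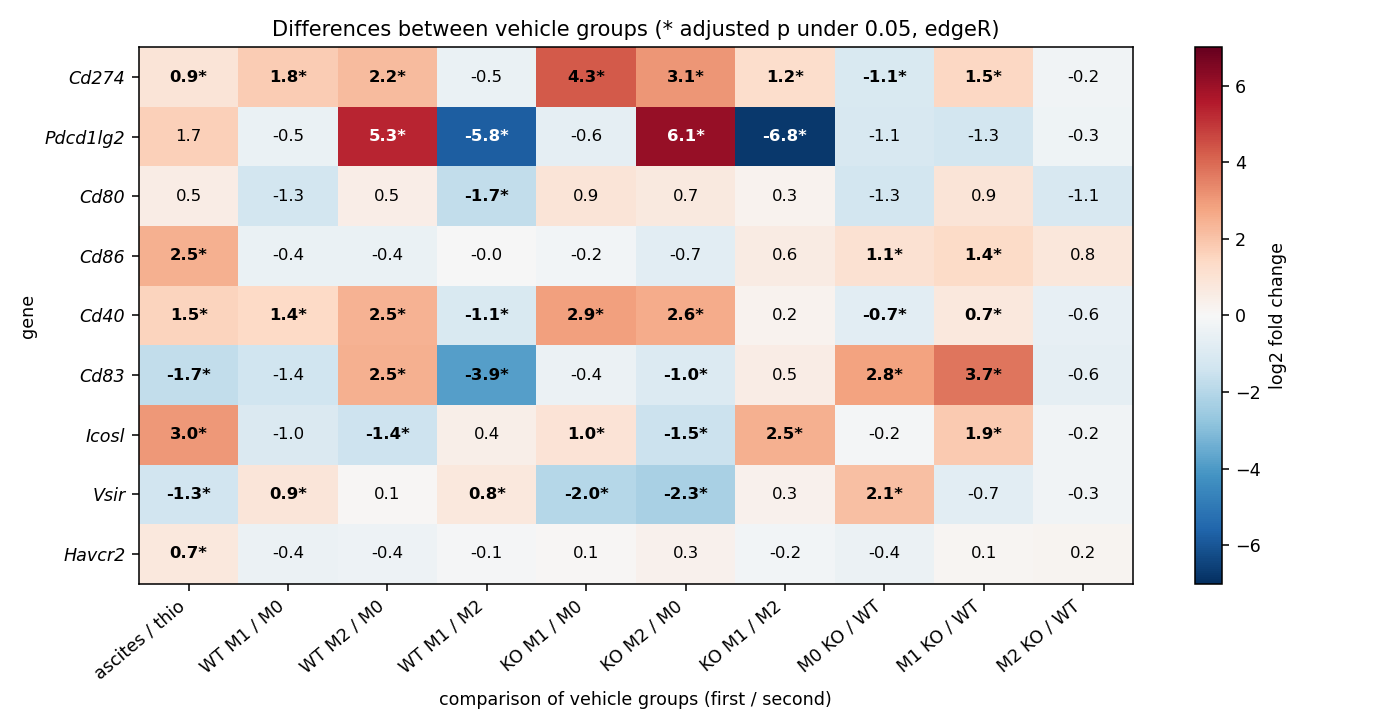
Log2 fold change of 9 genes (rows) in 10 comparisons of vehicle groups (columns, first group over second); red is higher, blue lower, and asterisks mark an adjusted p under 0.05 in edgeR. Cd274 and Cd40 are positive in all 4 comparisons of M1 or M2 with M0, and Vsir turns from higher or near 0 in WT to lower in KO.

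Vsir, which encodes the inhibitory ligand VISTA, stood out in unpolarized KO cells. Vehicle libraries read 87.9, 118 and 157 CPM in WT M0 but 444, 526 and 592 CPM in KO M0. No WT BMDM library, polarized or treated, exceeded 256 CPM. The difference was 2.11 ± 0.26 (4.31-fold, adjusted p = 7.22e-07). KO M1 libraries read 153, 138 and 104 CPM and KO M2 libraries 159.7, 80.9 and 83.6 CPM, all far below KO M0 (-1.98 ± 0.26, adjusted p = 5.14e-07, and -2.27 ± 0.26, adjusted p = 9.6e-08). In WT the M1 libraries were higher than M0, at 212, 191 and 256 CPM (0.86 ± 0.25, adjusted p = 0.0182), and higher than the 96.0, 109 and 184 CPM of M2 (0.76 ± 0.25, adjusted p = 0.024). The 2 genotypes differed in the M1 response by -2.85 ± 0.36 (adjusted p = 2.5e-06) and in the M2 response by -2.37 ± 0.36 (adjusted p = 2.13e-05). WT M1 against M0 lost its call without WT M0 vehicle replicate 1 or 2 or WT M1 replicate 3 (adjusted p = 0.0703 to 0.106) or under scaling by total counts (adjusted p = 0.0872), and WT M1 against M2 without replicate 1 or 3 of M1 or 1 or 2 of M2 (adjusted p = 0.0564 to 0.13; 0.58 without WT M2 replicate 1) or with only the compared libraries fitted (adjusted p = 0.0591).

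Treated KO M0 libraries had 409, 326 and 351 CPM of Vsir, all below vehicle (-0.52 ± 0.25, adjusted p = 0.132), and treated WT M0 libraries 209, 184 and 137 CPM (0.55 ± 0.25, adjusted p = 0.498). Neither change passed the test by itself, while their difference did, at -1.07 ± 0.35 (adjusted p = 0.0344). It was lost without any 1 of 7 libraries (replicates 1 and 2 of WT M0 vehicle and AP-3-84, 2 and 3 of KO M0 vehicle, and 2 of KO M0 AP-3-84; adjusted p = 0.0621 to 0.113). In the peritoneum Vsir was tightly replicated: 158, 157 and 161 CPM in ascites vehicle against 389.7, 406 and 394 CPM in thioglycollate vehicle, a 2.5-fold difference (-1.32 ± 0.06, adjusted p = 1.75e-11). AP-3-84 left ascites libraries at 159 to 166 CPM, and thioglycollate libraries at 329, 351 and 387 CPM, each below vehicle but not called (-0.16 ± 0.06, adjusted p = 0.193).

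Havcr2, the TIM-3 gene, hardly separated the vehicle BMDM groups, which ranged from 5.31 to 28.3 CPM and gave no call by polarization or genotype. Ascites vehicle libraries (30.0, 30.5 and 32.6 CPM) were above thioglycollate ones (17.9, 16.9 and 21.3 CPM) by 0.73 ± 0.11 (adjusted p = 5.85e-05), a call lost in a single fit of all 48 libraries (0.69, adjusted p = 0.177). AP-3-84 lowered Havcr2 in thioglycollate macrophages to 12.3, 14.6 and 14.6 CPM (-0.44 ± 0.12, adjusted p = 0.0407), with no overlap. This call ended without replicate 1 or 3 of vehicle or any treated library (adjusted p = 0.0673 to 0.202) and in the fit of all 48 libraries (adjusted p = 1). In M2 cells the genotypes parted: treated WT libraries read 43.5, 38.9 and 21.1 CPM against 20.6, 9.95 and 13.3 CPM in vehicle (1.23 ± 0.46, adjusted p = 0.234), and treated KO libraries 5.73, 6.52 and 5.22 CPM against 5.31, 25.9 and 19.6 CPM (-1.54 ± 0.51, adjusted p = 0.216). Their difference was -2.78 ± 0.69 (adjusted p = 0.0334). It was lost without any 1 of 9 of the 12 libraries (all but WT M2 vehicle replicate 1, WT M2 AP-3-84 replicate 3 and KO M2 vehicle replicate 1; adjusted p = 0.0559 to 0.14) and with only the compared libraries fitted (adjusted p = 0.101). Without KO M2 vehicle replicate 1, which resembled the treated group, the KO fall itself was called (-1.96, adjusted p = 0.0181), a choice that favours a call.

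In KO M0 the treated Havcr2 libraries read 2.78, 3.70 and 14.0 CPM against 8.91, 14.2 and 19.2 CPM in vehicle. The first 2 lay below all vehicle libraries and replicate 3 among them, and the change was -1.05 ± 0.51 (adjusted p = 0.142) with all libraries and -2.10 (adjusted p = 0.00451) without replicate 3. Its difference from the WT response became -2.25 (adjusted p = 0.0144) on leaving out that library, from -1.20 (adjusted p = 0.233). Replicate 3 was singled out for resembling vehicle, so leaving it out favours both of these calls.

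**Figure D4:**
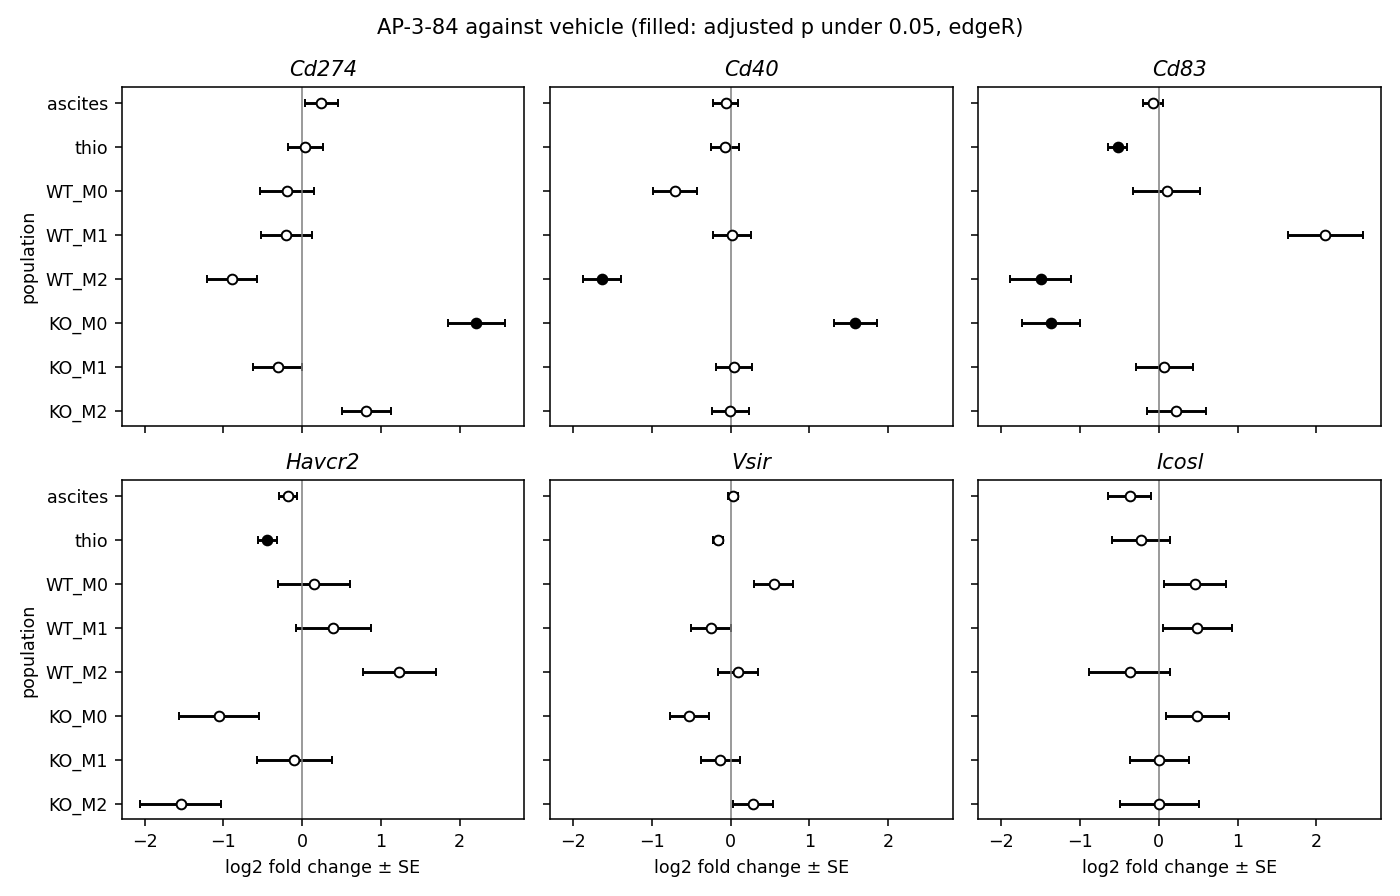
Log2 fold change of AP-3-84 over vehicle (horizontal axis, points with SE bars) for 6 genes in the 8 populations (vertical axis); filled points have an adjusted p under 0.05 in edgeR. Cd40 lies at -1.63 in WT M2 and 1.58 in KO M0, Cd274 is called in KO M0 alone, and Cd83 is called lower in thioglycollate, WT M2 and KO M0 macrophages.

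Genes around these proteins in their pathways were counted as 6 lists. In WT M2 against M0 (23.4% of all genes called), 8 of 14 tested genes of the IL-4 and IL-13 list rose and 0 fell (median 1.91, against 0.01 for all genes), with Cish, a STAT-induced feedback inhibitor, up by 7.00 and the lectin gene Mgl2 by 10.13. In KO M2 9 rose and 2 fell (Cish 6.39, Mgl2 8.22; Il4ra -1.01, Stat6 -0.45). The IFN-γ and JAK-STAT list had 9 of 18 genes up and 1 down in WT M1 (median 0.56; Batf 2.36, Jak2 1.42) and 7 up and 5 down in KO M1 (median 0.10; Batf 4.30, Socs3 4.26; Ifngr1 -2.12, Irf2 -1.52). Of 6 genes next to Cd274 and Pdcd1lg2 on chromosome 19, 5 rose in WT M1, 4 in WT M2, 4 in KO M1 and 5 in KO M2 with 0 falling in any (15.5%, 23.4%, 44.5% and 38% of all genes were called), Jak2, the IFN-γ receptor kinase, by 1.42, 2.02, 1.18 and 1.62.

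Under AP-3-84, 0 genes of the 6 lists were called in WT M0, WT M1, KO M1 or KO M2. In KO M0, where 20.7% of all genes were called, 6 of 18 IFN-γ and JAK-STAT genes rose and 3 fell (Batf 3.03, Socs3 2.58; Irf8 -0.68, Ifngr1 -0.84). There 2 of 17 CD40 and TNF receptor signalling genes rose and 0 fell (Nfkbia 1.45, Traf1 1.32; a smaller share than that of all genes), and 5 of 17 other contact ligand genes rose and 1 fell (the integrin ligand Icam1 1.17, Pvr 1.00; Cd24a -1.47). Cd28, on the list of T cell counter-receptors, fell by 2.25 on the log2 scale there (adjusted p = 0.0142). In WT M2 (1.21% of all genes called) 2 of 17 CD40 pathway genes fell (Traf1 -2.09, Nfkbia -0.97) and 0 rose, and 2 of 17 other contact ligand genes fell (Slamf7 -1.83, Tnfsf15 -3.67). The M1 check genes summed to 48.1 to 255 CPM in WT M2 vehicle and 3.71 to 14.2 CPM with AP-3-84. Of 18 IFN-γ list genes 1 fell in WT M2 (Jak2 -0.86). In thioglycollate macrophages (4.32%) 1 of 21 other contact ligand genes fell (Sirpa -0.46) and 2 of 18 IFN-γ list genes fell (Irf8 and Ifngr1, -0.25 each). Klf4 of the IL-4 list rose there (0.40) and in ascites macrophages (0.50). The ascites against thioglycollate difference, with 33.7% of all genes called, took in 14 IFN-γ and JAK-STAT genes up and 2 down of 18 (Irf1 1.68). It took in 11 up and 1 down of 14 IL-4 and IL-13 genes (Cish 5.13; Pparg -1.62), 10 up and 1 down of 17 CD40 pathway genes (Traf1 2.60; Tnfaip3 -0.65), and 7 up and 7 down of 21 other contact ligand genes (Nectin2 3.41, Lgals9 2.65; Cd200 -4.30, Vsig4 -1.48).

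Between genotypes in vehicle, 33.2% of all genes were called at M0, 11.6% at M1 and 3.56% at M2. Of 17 CD40 pathway genes tested, 4 were higher and 4 lower in KO at M0 (Map3k14 2.53, Traf5 1.48; Nfkbia -1.67, Traf1 -1.92), 4 were higher and 0 lower at M1 (Rel 1.29, Traf2 0.92). At M2 0 were higher and 2 lower (Nfkbia -0.96, Nfkb2 -0.98). Of 18 IFN-γ list genes 6 were higher and 4 lower in KO at M0 (Irf8 1.49, Ifngr1 1.64; Socs3 -2.84), and 0 higher and 1 lower at M1. Of 17 other contact ligand genes 5 were lower and 0 higher at M0 (Ceacam1 -1.78, Icam1 -1.54), 3 higher and 1 lower at M1 (Slamf7 1.12), and 2 lower and 0 higher at M2 (Icam1 -1.17). Cd28, the receptor of CD80 and CD86, was higher in KO M0 (2.67), where the counter-receptor list summed to 114 to 127 CPM while Cd3e was at 0. The whole T cell list was higher there, however, at 7.39 to 7.84 CPM against 0.897 to 3.11 CPM in WT M0 vehicle libraries. The B cell list was also higher, at 24.6 to 36.3 against 7.17 to 14.8 CPM. The part of these cells in the Cd28 difference was not tested.

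Genes most like each member were listed by Pearson's r of mean log2 CPM over the 12 BMDM groups, among 8431 genes whose log2 CPM averaged at least 3, as a description. The gene most like Cd274 was Cd40 (r = 0.948), followed by Rgl1 (0.944) and Aldh1b1 (0.935), and Cd40 in turn was most like Rgl1 (0.958), Bcl2a1d (0.955) and Aldh1b1 (0.95). Pdcd1lg2 resembled Ear2 (0.99), Scn3a (0.99) and the chemokine gene Ccl17 (0.989), groups at 0 against M2 groups making up this likeness. Cd83 was most like A930007I19Rik (0.881), the noncoding gene that overlaps Pdcd1lg2, then Irs2 and Tsc1 (0.877 each). Vsir resembled Tnrc18 and Mob3a (0.953 each) and Abhd12 (0.946), Cd86 Rapgef6 (0.949), Rsrc1 (0.935) and Rexo1 (0.92), and Icosl Fip1l1 (0.921), Crlf3 (0.91) and Slu7 (0.908). Cd80 resembled Spp1 (0.897), Ulbp1 (0.888) and Cdk6 (0.853), and Havcr2 Mcu (0.896), Wrb (0.864) and Spg7 (0.842). Between members the values ran from -0.84 for Pdcd1lg2 with Icosl to 0.948 for Cd274 with Cd40. All points share the libraries of 12 groups, and 3 of those libraries were singled out above.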

How the data were processed

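RNA of 48 mouse macrophage samples was sequenced as QuantSeq FWD 3′ libraries, per the labels' protocols. The deposited table holds raw counts per Ensembl gene ID and library, made by the authors; the submitters' processing notes name Bowtie2, RSEM and DESeq2 without versions. The genome build and annotation, and whether strand or molecular barcodes were used in counting, were not given in the sources used here. Symbols came from GENCODE M21 (GRCm38), which named 51596 of 51789 IDs. Groups were taken from titles and characteristics. Peritoneal (12) and bone marrow-derived (36) libraries were fitted apart in edgeR 4.0.16 (R 4.3.3, limma 3.58.1): filterByExpr, trimmed mean of M-values scaling, robust quasi-likelihood F test, 1 mean per group, two-sided, Benjamini-Hochberg over the 16955 and 11779 genes tested, threshold 0.05, 24 comparisons. Levels are CPM. Fits were tested on simulated counts. Replicates of a group differed by more than sampling noise (chi-square per gene 2.51 to 38.7). Alternatives were DESeq2 1.42.0, other scalings, no filter, a replicate block, other library sets and leaving out each library. The members and the lists (contact ligands, IFN-γ, IL-4, CD40, counter-receptors, neighbours, cell type markers, label checks) were chosen with earlier results of these data known. Genes named beyond the members are, per list and direction, up to 2 called genes of lowest p, the 3 genes most like each member, and genes used as label or cell type checks.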

Additional observations from a re-analysis of the deposited data

Results flagged for a closer look

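Each of these results was picked out because the same contrast gave different log2 responses in KO and WT macrophages by a test of the difference itself (edgeR, adjusted p over all genes). For AP-3-84 at M0, the KO minus WT difference was 2.40 for Cd274 (adjusted p = 0.00174) and 2.29 for Cd40 (adjusted p = 0.00018), and -1.07 for Vsir (adjusted p = 0.0344). For AP-3-84 at M2, the KO minus WT difference was 1.70 for Cd274 (adjusted p = 0.0447) and 1.62 for Cd40 (adjusted p = 0.0085), and -2.78 for Havcr2 (adjusted p = 0.0334). With only the compared libraries fitted, edgeR called none of these 3 M2 differences (adjusted p = 0.183, 0.0749 and 0.101).

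For M1 against M0 in vehicle, the KO minus WT difference of the log2 changes was 2.55 for Cd274 (adjusted p = 0.000366), 1.48 for Cd40 (adjusted p = 0.00387) and 2.01 for Icosl (adjusted p = 0.0119), and -2.85 for Vsir (adjusted p = 2.5e-06). For M2 against M0 in vehicle, the differences were -3.45 for Cd83 (adjusted p = 4.37e-05) and -2.37 for Vsir (adjusted p = 2.13e-05). The KO M0 and WT M0 vehicle libraries enter the M0 compound difference and both polarization differences. The KO M2 and WT M2 vehicle libraries enter the M2 compound difference and the M2 polarization difference. The values that share libraries are therefore not independent.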

How the results depend on the processing

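Of the 62 calls of a member in a comparison, 40 held under every alternative, 42 when each library was left out in turn, and 0 of 1237 recomputed values were called in the reverse direction. The number of members called moved as follows, and the causes were not tested. The share of all genes called under each setting is not given here, so these counts have no background beside them. Without the filter on low counts it was 1 in place of 0 for AP-3-84 in WT M1, 4 in place of 2 in WT M2, 2 in place of 0 in KO M2, and for the KO minus WT responses 5 in place of 3 at M0, 1 in place of 0 at M1 and 5 in place of 3 at M2. With only the compared libraries it was 1 for AP-3-84 in WT M1, 1 in WT M2, 3 in place of 5 for WT M1 against M2, and 0 for the M2 response difference. One fit of all 48 libraries gave 0 in place of 2 in thioglycollate macrophages and 1 in WT M1, and DESeq2 gave 1 in WT M1. That single fit also lost Havcr2 in ascites against thioglycollate (adjusted p = 0.177). Scaling by total counts gave 1 in WT M2 and 5 in place of 3 for WT M1 against M0. Leaving out 1 library gave 0 to 2 for thioglycollate, 1 to 2 for WT M2, 0 to 2 for KO M2, 3 to 5 for WT M1 against M2, 2 to 4 for KO against WT at M0, 3 to 5 at M1, 0 to 1 at M2, 2 to 5 for the M0 response difference and 1 to 4 for the M2 one.

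Replicate numbers did not pair the libraries: of 24 pairs 4 correlated over 0.1 and 5 had their best correlation within their own number. With the replicate block 1 member was called in thioglycollate macrophages and 1 in WT M2, in place of 2 each. The calls the block ended were Havcr2 in thioglycollate (adjusted p = 0.0712), Cd83 in WT M2 (0.0613), Cd40 in KO against WT at M0 (0.0517) and the Cd274 response difference at M2 (0.0545); it ended no other call of a member. Scaling by total counts put the median of all genes, near 0 otherwise, at -0.30 for WT M1 against M0 (16.9% of called genes higher, in place of 51.7%), at -0.20 for WT M2 against M0 (30.7% for 54.2%), at 0.27 for KO against WT at M1 (89% for 50.9%), at 0.19 for KO against WT at M2 (76.6% for 34.1%), at 0.11 for AP-3-84 in WT M2 (33.1% for 19%), and at -0.15, 0.23 and 0.13 for the M2 compound, M1 and M2 polarization differences (36.1% for 61.1%, 76.4% for 54.1% and 65.2% for 51.4%). For AP-3-84 in ascites it gave 81.8% in place of 94.4%. Depth limits Cd80, Tnfsf9 and Pdcd1lg2 outside M2, where 1 count is worth 0.212 to 0.331 CPM.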
